A study of Mus musculus with 16 samples.

Results

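The livers of 4 mice that received resveratrol and 4 that received metformin, all on high-fat feed, were compared for their long non-coding RNAs, using 8 of the 16 libraries of the study. Both groups were C57BL/6J mice dosed by gavage, at 100 mg/kg of resveratrol or 200 mg/kg of metformin a day, and each mouse gave 1 library of total liver RNA. The labels give postnatal day 21 as the age of all mice, without placing it relative to the feeding, and name no sex, cage, litter or batch. The titles carry a pair of numbers for each mouse whose meaning is not given, and these were not used. The remaining groups, 4 mice on ordinary feed and 4 on high-fat feed alone, entered no test of the drugs against each other, and their levels are given only as a description; the fourth high-fat library had the lowest level relative to the other libraries (a median ratio to the geometric-mean library of 0.691). Replicates are numbered by sample order, and p-values reflect the spread between these libraries only.

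Resveratrol is a plant polyphenol that has been studied as an activator of the deacetylase Sirt1 and of AMP-activated protein kinase (AMPK), the energy sensor of the cell. Metformin is a biguanide that lowers glucose output by the liver and acts on complex I of the mitochondrial respiratory chain, with AMPK among its targets. Long non-coding RNAs are transcripts without a long reading frame, and many lie inside introns, beside or across coding genes. The comparison asks where the livers under the 2 drugs differ in such RNAs on the same diet.

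Levels were deposited as FPKM, reads scaled by transcript length and library total. Coding genes are not listed, so a gene symbol below says where a feature lies, not how the coding gene was expressed. How strand was handled is not stated in the sources used here, and reads of a feature cannot be told apart from reads of an overlapping gene. The 8 libraries held between 17.6 and 24.0 M reads, and 1 read on a transcript of 1 kb was worth between 0.0417 and 0.0567 FPKM. Listed transcripts took 15.9 to 19.1% of the reads with resveratrol and 17.1 to 19.7% with metformin. Of the listed reads, 7SL RNA took 47.6 to 53.1% and 49.6 to 54.4%. A ribosomal RNA locus of chromosome 17 took 8.80 to 13.4% and 11.9 to 16.1%, so far fewer reads lay on the other features. Total reads, the share on listed transcripts, the share taken by 7SL RNA, the share on a ribosomal RNA locus of chromosome 17, the median ratio to the geometric-mean library and the number of features at 1 FPKM or more were compared over 6 exact permutation tests. Their two-sided exact permutation p ran from 0.286 to 0.8, against a smallest possible 0.029 for 4 libraries against 4. The median ratios were 1.04 to 1.11 with resveratrol and 0.885 to 1.09 with metformin, and the lowest ones belonged to metformin libraries 4 (0.885) and 3 (0.944). Pearson correlations across features had medians of 0.858 over the 16 pairs between the drugs, 0.861 over the 6 pairs within resveratrol and 0.864 over the 6 within metformin. Of 14 hepatocyte markers, Apoa1 and Mup3 had a linked feature, at a summed 11.5 to 12.8 FPKM with resveratrol and 6.38 to 14.8 with metformin. Stellate cell markers had 2 of 11 (Reln and Hand2), the cholangiocyte list 1 of 7 and the other 7 marker lists none, so the tissue label could be checked only through these features. In bulk liver, fewer cells of a type and less RNA per cell cannot be told apart.

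No feature passed the test between the drugs. Limma on log2(FPKM + 1) called 0 of 7413 features (0%) at an adjusted p under 0.05, and the smallest adjusted p was 0.0728, shared by the long intergenic RNA AU020206 and a short intronic feature of Larp1. At an unadjusted limma p under 0.05 there were 527 features (7.11%), of which 399 (5.38% of all tested) were higher with resveratrol and 128 (1.73%) lower. That split changed with the scaling of the libraries. With median-ratio scaling 526 features had an unadjusted limma p under 0.05, 231 higher and 295 lower. The share higher went from 75.7% to 43.9%, and the median of all log2 differences went from 0.07 to 0.00. This scaling brings the median difference near 0 by design. A difference in library scale and a broad shift of levels therefore cannot be told apart by it. All 4 resveratrol values lay above all 4 metformin values in 271 features (3.66%), and all 4 metformin values above in 82 (1.11%).

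The test bounded most differences closely. The median standard error (SE) of a log2 difference was 0.15, and for 6387 features (86.2%) the 95% interval lay within 1 in both directions, a 2-fold change of FPKM + 1. For the other 1026 features the interval reached past 2-fold, and for 4 of these it lay wholly beyond it. A difference of at least 1 was seen in 106 features, 68 higher and 38 lower with resveratrol, and 17 of the 106 had groups that did not overlap. The scale understates the change of features at low FPKM.

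**Figure D1:**
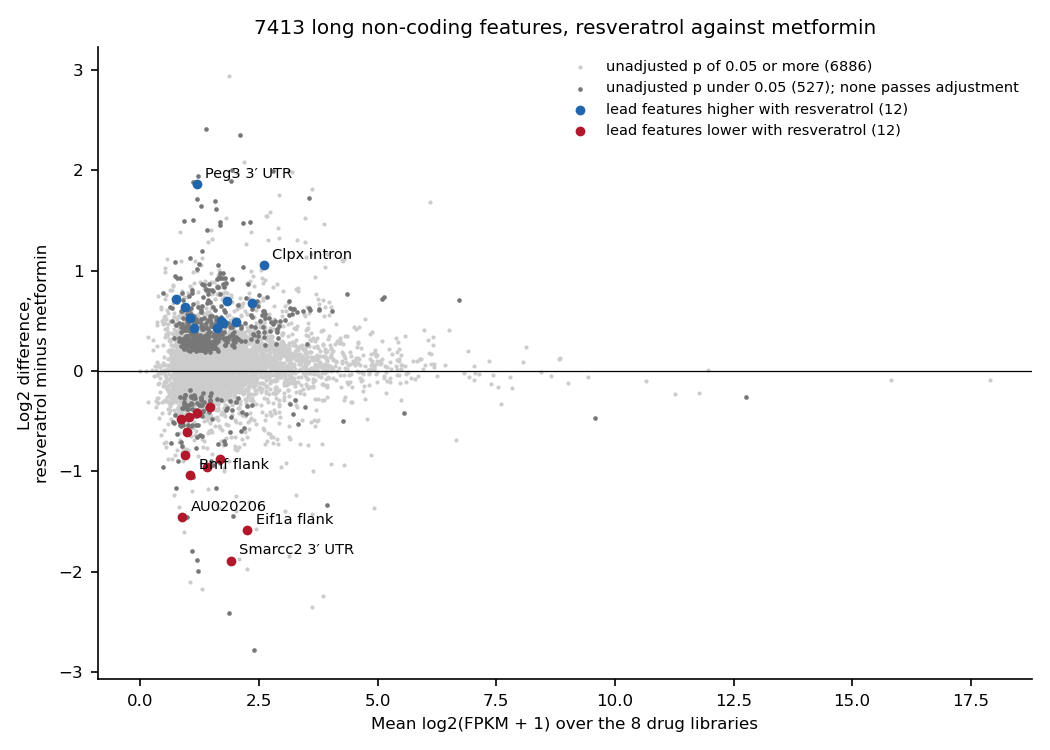
Each point is 1 of the 7413 features, with its mean log2(FPKM + 1) over the 8 drug libraries on the x axis and its log2 difference, resveratrol minus metformin, on the y axis. Dark grey points have an unadjusted limma p under 0.05 (527 features), coloured points are the 12 features named in each direction, and none passed adjustment.

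AU020206, an intergenic RNA of chromosome 7 (75769038 to 75782099, GRCm38) without a role described here, had the lowest p of all features. It stood at 0.520, 0.0139, 0 and 0.0145 FPKM in the resveratrol livers and at 2.54, 2.17, 2.06 and 1.55 FPKM in the metformin livers. The groups did not overlap, and the log2 difference was -1.45 (SE 0.17, 95% interval -1.84 to -1.07, limma adjusted p = 0.0728). With 1 library left out the limma adjusted p ran from 0.00616, without resveratrol library 1, to 0.214. Livers on high-fat feed alone were split, at 2.46 and 1.38 FPKM in libraries 1 and 4 and at 0.0214 and 0.0145 in libraries 2 and 3. Ordinary-feed livers ranged from 0.323 to 1.89 FPKM.

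The metformin signal of AU020206 came from its single-exon transcript AU020206-202, of 3009 bases, which shares 2938 of them with a longer listed transcript, NONMMUT127337.1. The 240 bases at the 3′ end of AU020206-202 are shown because they hold the boundary between what both transcripts cover and what NONMMUT127337.1 leaves out. They are chr7:75769038-75769277 of GRCm38, minus strand, read from GENCODE M21, and the 71 bases in capitals lie outside the interval of NONMMUT127337.1. A multi-part transcript (NONMMUT062264.2) also reaches into the capitals, from position 75769066 on.
AU020206-202: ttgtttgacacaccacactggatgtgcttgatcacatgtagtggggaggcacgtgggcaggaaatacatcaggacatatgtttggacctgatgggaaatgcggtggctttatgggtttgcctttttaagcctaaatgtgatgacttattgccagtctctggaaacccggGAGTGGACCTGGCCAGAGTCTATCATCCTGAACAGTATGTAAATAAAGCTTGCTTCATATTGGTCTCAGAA

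The overlapping transcript went the other way. NONMMUT127337.1 (75769109 to 75773055) stood at 0.347, 1.58, 2.26 and 1.97 FPKM with resveratrol and at 0.474, 0.503, 0.275 and 0.387 with metformin. It was higher in resveratrol libraries 2, 3 and 4 than in any metformin library, while library 1 lay within the metformin range (log2 difference 0.78, limma unadjusted p = 0.0162, adjusted p = 0.674). The 0.520 FPKM of AU020206 in resveratrol library 1 came, except for 0.0157 FPKM, from the spliced transcript AU020206-201. When the 7 overlapping transcripts were merged into 1 locus, a step added after these values had been seen, the levels were 0.735, 1.61, 2.27 and 2.13 FPKM with resveratrol and 2.49, 2.25, 1.96 and 1.57 with metformin. The groups then overlapped, and the log2 difference was -0.22 (95% interval -0.69 to 0.24, limma adjusted p = 0.766).

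**Figure D2:**
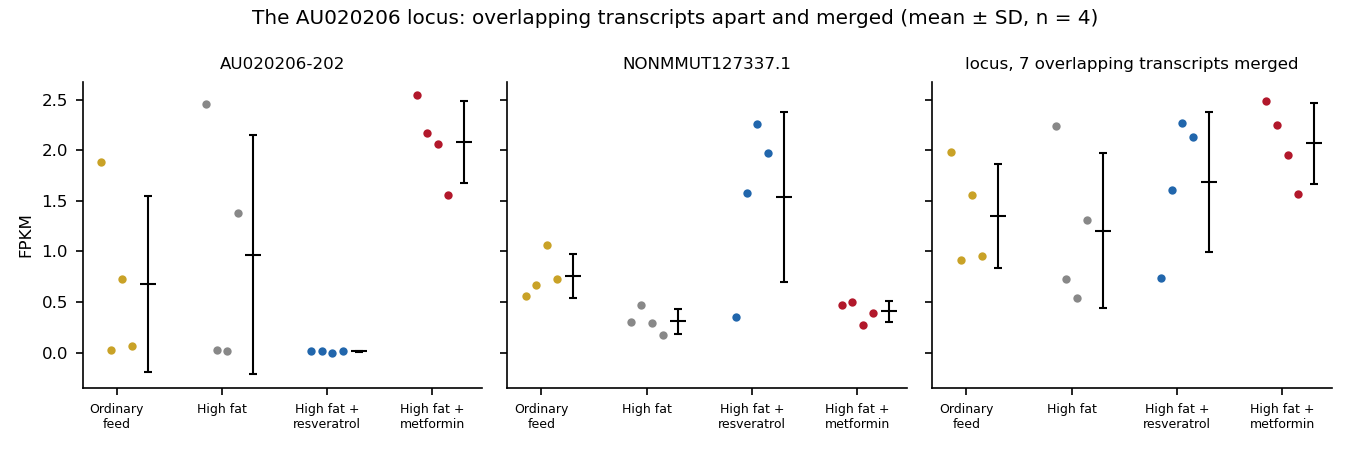
FPKM of AU020206-202, of the overlapping NONMMUT127337.1 and of the merged locus of 7 transcripts in each of the 16 libraries (dots), with the mean ± SD of each group of 4 beside them. The metformin livers are high for the first transcript, 3 of the 4 resveratrol livers are high for the second, and the merged levels of the 2 drug groups overlap.

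The intronic feature of Larp1 (NONMMUT009908.2, chromosome 11, 58009919 to 58010174), 256 bases within the gene of an RNA-binding protein that controls translation of ribosomal protein mRNAs, was alone in its locus. It stood at 1.11, 1.63, 1.5 and 1.19 FPKM with resveratrol and at 3.32, 3.55, 3.39 and 2.99 with metformin. Every metformin liver lay above every resveratrol liver, and ordinary-feed (1.67 to 2.72) and high-fat livers (1.21 to 2.49) lay below the metformin range (log2 difference -0.87, SE 0.10, limma adjusted p = 0.0728). These levels rest on 6 to 20 reads a library.

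The feature 26.7 kb downstream of Eif1a, a translation initiation factor gene (NONMMUT145427.1, chromosome 18), also split with an overlapping partner. It had 1.22, 1.68, 1.18 and 3.47 FPKM with resveratrol against 6.66, 8.46, 6.52 and 7.52 with metformin (-1.58, SE 0.23, limma adjusted p = 0.232; 0.00438 without resveratrol library 4 to 0.548 with another library left out). NONMMUT032278.2, which shares 2118 bases with it, had 0.306, 7.21, 4.50 and 4.60 FPKM with resveratrol against 2.18, 0.0788, 0.01 and 0 with metformin (1.64, limma unadjusted p = 0.0246). Merged over 16 transcripts, the locus stood at 9.53 to 14.9 FPKM with resveratrol and 7.25 to 10.5 with metformin, a difference of 0.30 (95% interval -0.09 to 0.69) in the other direction.

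Such opposite pairs were few but included the leading results. Of 1351 overlapping pairs of tested features, 13 had an unadjusted limma p under 0.05 in both members, 10 in the same and 3 in opposite directions: the pairs at AU020206, at Eif1a and upstream of Pck1. Of the 24 lead features, 9 shared a locus with other listed transcripts. After merging, 6 of the 9 kept their direction with an unadjusted limma p under 0.05. The other 3 did not: AU020206, NONMMUT145427.1 and the intronic feature of Tns1. The Tns1 locus of 19 transcripts had a difference of 0.01 (95% interval -0.45 to 0.46). It ran from 73899780 to 74394677 of chromosome 1, since transcripts were joined by start-to-end span, introns included. Its members need not share bases with the Tns1 feature, at 73977150 to 73978939, so the merged value says little about that feature. Merging all 51024 listed transcripts left 6290 loci that passed the same filter, again with no call. Of these loci, 465 had an unadjusted limma p under 0.05, 346 higher and 119 lower.

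The clearest feature higher with resveratrol lay in the 3′ untranslated region (UTR) of Peg3, a paternally expressed imprinted gene for a zinc-finger protein (NONMMUT059852.2, chromosome 7, 6703905 to 6705835). It stood at 3.35, 3.74, 6.07 and 1.42 FPKM with resveratrol and at 0.110, 0.147, 0.359 and 0.186 with metformin. The metformin range met that of high-fat feed alone (0.0708 to 0.117), and ordinary-feed livers were split, with 3.65 and 5.13 in libraries 2 and 3 and 0.180 in each of libraries 1 and 4. The log2 difference was 1.86 (SE 0.28, 95% interval 1.21 to 2.50, limma adjusted p = 0.245). With 1 library left out the limma adjusted p ran from 0.00666, without resveratrol library 4, to 0.578.

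An intronic feature of Clpx, the unfolding subunit of a mitochondrial matrix protease (NONMMUT069603.2, chromosome 9, 65313881 to 65315623), was at 9.87, 8.64, 9.12 and 4.53 FPKM with resveratrol and at 3.17, 2.99, 2.59 and 4.28 with metformin. Resveratrol library 4 lay just above metformin library 4 and apart from the other resveratrol livers (log2 difference 1.05, SE 0.23, limma adjusted p = 0.655). With 1 library left out the limma adjusted p ran from 0.0455, without resveratrol library 4, to 0.845. On high-fat feed alone the feature ranged from 1.67 to 3.34 FPKM, and on ordinary feed from 4.45 to 18.6.

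The other features named as higher with resveratrol had groups that did not overlap, as the choice of members required, and a limma adjusted p of 0.489 or more. In Tns1, a protein of cell adhesions, the feature averaged 5.51 ± 0.724 FPKM under resveratrol, against 3.07 ± 0.394 under metformin (SD, n = 4 livers; log2 difference 0.68). In Ppp2r5e, a regulatory subunit of protein phosphatase 2A, the means were 3.55 ± 0.720 and 1.81 ± 0.415 (0.70). In Map3k13, a stress-pathway kinase, 1 metformin library was at 0, and the means were 1.15 ± 0.232 and 0.321 ± 0.219 (0.71). Features of Ablim3 (actin-binding, 0.64), Tox (a nuclear HMG-box protein, 0.50), Myo1e (a myosin, 0.43) and Mrtfb (a coactivator of serum response factor, 0.42) were also intronic. The list was completed by multi-part features at Lurap1l (0.48) and Pm20d2 (0.48) and by 1 located 0.752 kb downstream of the zinc-finger gene Zfp84 (0.53).

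Of the 12 features chosen as lower with resveratrol, 2 lay mainly in a 3′ UTR, those of Smarcc2 and Git2. In Smarcc2, a subunit of the BAF chromatin remodelling complex (NONMMUT008156.2), resveratrol livers were at 0.783, 0.932, 1.00 and 1.10 FPKM and metformin livers at 10.4, 1.51, 8.50 and 8.97. Metformin livers 1, 3 and 4 stood far above and library 2 close to the resveratrol group (-1.89, SE 0.44, limma adjusted p = 0.655). With 1 library left out the limma adjusted p ran from 0.000200, without metformin library 2, to 0.845. The same feature was high in 1 of 4 high-fat livers (11.6 FPKM) and in 3 of 4 on ordinary feed.

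A feature 5.33 kb upstream of Bmf, a pro-apoptotic BH3-only gene, averaged 0.511 ± 0.513 FPKM with resveratrol and 2.03 ± 0.695 with metformin (-1.04, limma adjusted p = 0.655), and the merged locus of 3 transcripts differed by -1.03. Gm37651, within an intron of the ceramide synthase gene Cers6, averaged 0.738 ± 0.256 and 1.38 ± 0.12 FPKM (-0.46). The feature 36.6 kb upstream of Slc38a10, an amino acid transporter family member, differed by -0.96, and its merged locus of 8 transcripts by -0.44. The feature just upstream of Trim11, a ubiquitin ligase, differed by -0.60, and its merged locus of 4 transcripts by -0.27. Others included features at Git2 (a regulator of ARF GTPases, 3′ UTR, -0.84), Trim24 (a nuclear receptor cofactor, -0.48) and Vps52 (vesicle tethering, -0.36). The feature named for Vps52 lies over the class I histocompatibility pseudogene H2-K2, so reads of near-identical relatives may be shared.

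**Figure D3:**
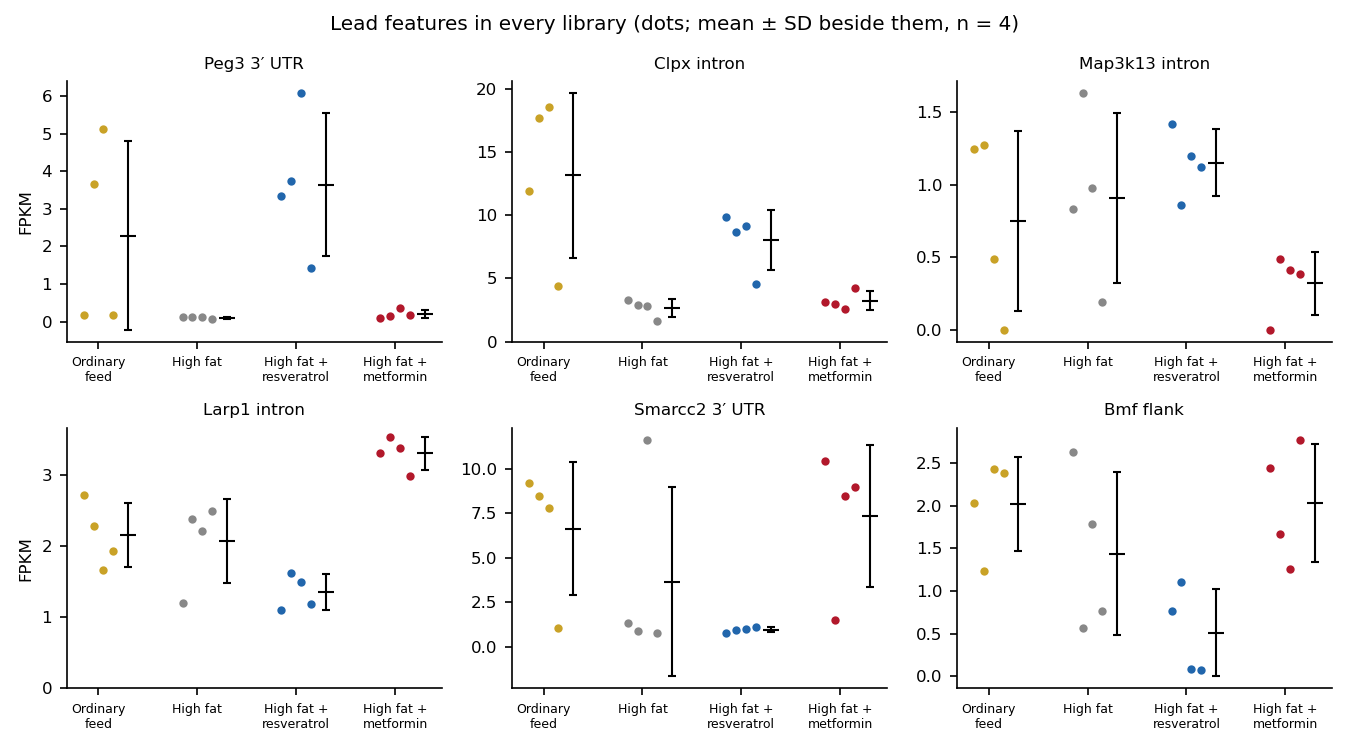
FPKM of 6 lead features in all 16 libraries (dots), with the mean ± SD of each group of 4 beside them. The features of Peg3, Clpx and Map3k13 are higher in every resveratrol liver than in any metformin liver, those of Larp1, Smarcc2 and upstream of Bmf lower, and the ordinary-feed and high-fat livers spread across both levels for several of them.

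Features at the genes through which the drugs are thought to act did not pass the test. Of 23 key genes, 16 had a linked feature, and none of the 7 metformin transporters listed did. An intronic feature of Prkaa2, a catalytic AMPK subunit, averaged 1.14 ± 0.351 FPKM with resveratrol and 0.977 ± 0.254 with metformin (difference 0.11, 95% interval -0.22 to 0.44). In Stk11, the kinase upstream of AMPK, it was 3.67 ± 0.741 against 3.38 ± 0.111 (0.08, -0.22 to 0.38). In Sirt3, the mitochondrial deacetylase, it was 3.63 ± 0.342 against 3.16 ± 0.933 (0.18, -0.20 to 0.55). These 3 intervals lie inside 2-fold.

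At Sirt1 the feature lay in the 3′ UTR (NONMMUT005901.2) and was on or off. It stood at 3.01, 4.06, 0.0883 and 3.75 FPKM with resveratrol and at 4.12, 0.0695, 3.77 and 2.95 with metformin, so 1 liver of each group was off. The difference of 0.01 had a 95% interval of -1.44 to 1.45, which does not bound a 2-fold change.

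Among the 16 key genes with a feature, 2 features had an unadjusted limma p under 0.05, which 7.11% of all features met. The count is too small to set these genes apart from the other features. The feature 4.67 kb upstream of Pck1, the key enzyme of glucose synthesis, stood at 1.92, 1.71, 1.79 and 2.01 FPKM with resveratrol and at 1.32, 0.949, 1.33 and 1.38 with metformin (0.35, 95% interval 0.14 to 0.56, limma unadjusted p = 0.00512, adjusted p = 0.655). Its groups did not overlap, yet NONMMUT041549.2, listed over the same interval, was lower by 0.36 (limma unadjusted p = 0.0415), and the merged locus of 12 transcripts had 0.26 (-0.09 to 0.61). Gm15441, which spans Txnip, a glucose-responsive gene that restrains glucose uptake, stood at 4.20, 8.43, 8.69 and 2.75 FPKM with resveratrol and at 1.90, 1.51, 3.49 and 3.92 with metformin. Its groups overlapped (0.87, 0.06 to 1.68, limma unadjusted p = 0.0388). Its merged locus of 3 transcripts had the same 0.87 with a narrower interval (0.26 to 1.48, limma unadjusted p = 0.0107, adjusted p = 0.603). The merged groups were barely apart, with resveratrol library 4 and metformin library 4 both at 4.54 FPKM.

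The other intervals of key genes held 0. That of Cpt1a, the gate for fatty acid entry into mitochondria (0.00, -0.35 to 0.35) and that of Ppara, the receptor that drives fatty acid oxidation (0.07, -0.32 to 0.46), lay inside 2-fold. Those of the lipid-making enzymes Fasn (0.74, -0.28 to 1.76) and Scd1 (-0.06, -1.70 to 1.58) did not, nor did that of Cyp7a1, whose enzyme starts bile acid synthesis (-0.48, -1.25 to 0.28), or of Igfbp2, which binds insulin-like growth factors (0.63, -0.28 to 1.55). The Mis12 feature was on in all 8 livers, at 2.45 to 8.90 FPKM. Of the nuclear RNAs, Malat1 stood at 151 FPKM in resveratrol library 3 and at 4.58 to 9.98 in the other 7 drug libraries, and Neat1 at 109 in resveratrol library 1 and 77.8 in metformin library 1 against 6.53 to 22.9 elsewhere. Gas5, a host of small nucleolar RNAs, averaged 24.8 ± 2.93 and 25.2 ± 2.56 FPKM (-0.02, -0.34 to 0.30).

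**Figure D4:**
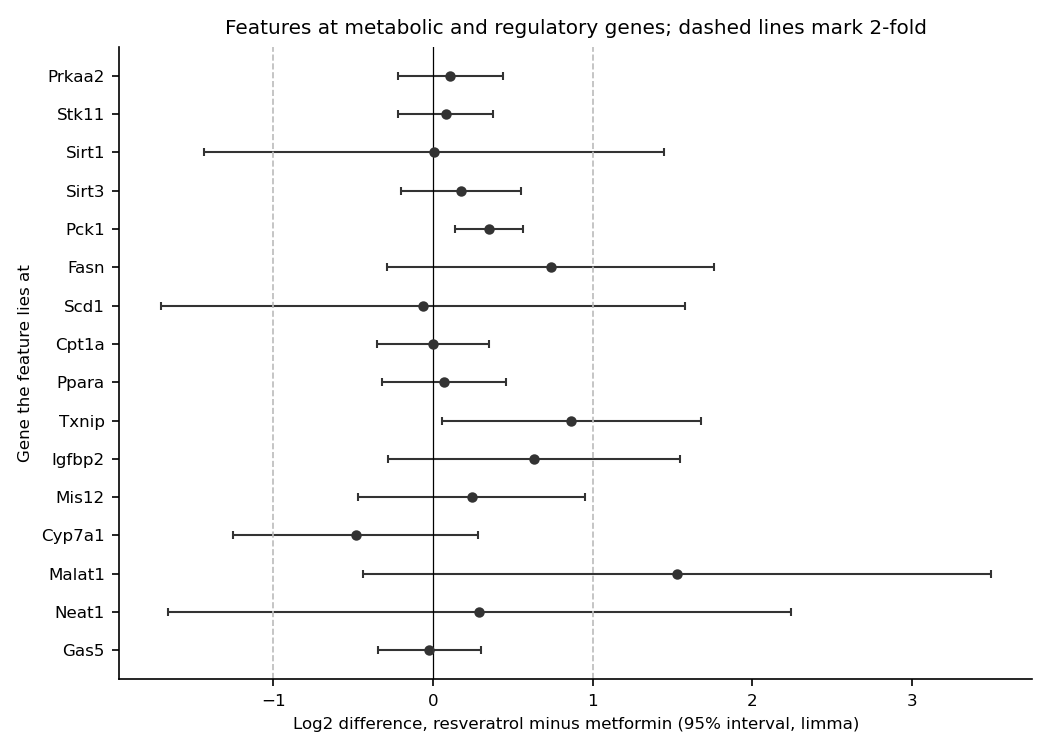
Log2 difference of FPKM + 1, resveratrol minus metformin (points), with its 95% limma interval (bars), for the 16 key genes with a tested feature. Intervals of Prkaa2, Stk11, Sirt3, Pck1, Cpt1a, Ppara, Mis12 and Gas5 lie within the dashed 2-fold lines, and only those of Pck1 and Txnip (Gm15441) leave out 0.

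Of 22 pathway lists, 21 had at least 3 linked features, 182 distinct ones in all, and no member was called. The counts that follow are at an unadjusted limma p under 0.05, which 7.11% of all features met. The cholesterol list of 9 had 2 higher and 2 lower with resveratrol. Higher were features of Abca1, which exports cholesterol from cells (0.49, 4.80 to 7.64 against 3.45 to 4.40 FPKM), and Insig2, which retains the sterol-sensing SREBP complex (0.71, 86.6 to 196 against 66.1 to 103 FPKM). Among the lower ones was that of Stard4, a cholesterol carrier (-0.50, 12.3 to 20.3 against 16.5 to 29.5 FPKM). The groups did not overlap for Abca1 and overlapped for Insig2 and Stard4. The list median was -0.09, against 0.07 over all features.

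The clock list of 10 had 2 higher, in the core gene Clock (0.60) and the glucocorticoid-induced Tsc22d3 (1.04), and 1 lower, in Per3 (-0.94), a period gene. The Per3 feature stood at 0.949, 0.922, 0.400 and 2.57 FPKM with resveratrol and at 3.26, 3.27, 2.89 and 2.55 with metformin. Only resveratrol library 4 entered the metformin range. The feature was called in 1 of the fits with a library left out, that without this library (-1.20, limma adjusted p = 0.0455). The hour at which livers were taken is not stated in the sources used here. With median-ratio scaling 1 clock feature was higher and 3 were lower.

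Single members met the same threshold in several other lists. These included Gm22036 in the organic anion transporter Slco1a1 (0.65), Gm15622 over Bhmt, which remethylates homocysteine (0.95), and features of Atg7, an autophagy enzyme (0.57), Cyp2f2, a periportal cytochrome (0.49), and Ugt1a1, which conjugates bilirubin (0.27). All those named were higher with resveratrol, as were 75.7% of all features that met the threshold. The named members had limma adjusted p-values of 0.655 to 0.674. Among the 29 named long non-coding RNAs, Gm15441 was higher and Rpph1, the RNA of ribonuclease P, lower (-0.26, 5200.1 to 7314 against 6957 to 8619 FPKM).

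No member met that threshold among 10 features of the respiratory chain, where the list median was -0.02 and the range -0.24 to 0.19. None did among 4 of sirtuins and NAD synthesis, 9 of lipogenesis, 8 of triglyceride assembly, 10 of glycolysis and insulin signalling, 8 of antioxidant defence, 10 of endoplasmic reticulum stress, 3 of inflammation or 13 of liver transcription factors. With median-ratio scaling the features of Gm15441, Tsc22d3, Cyp2f2 and Ugt1a1 no longer met that threshold, and 2 antioxidant features and 1 inflammation feature were lower.

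**Figure D5:**
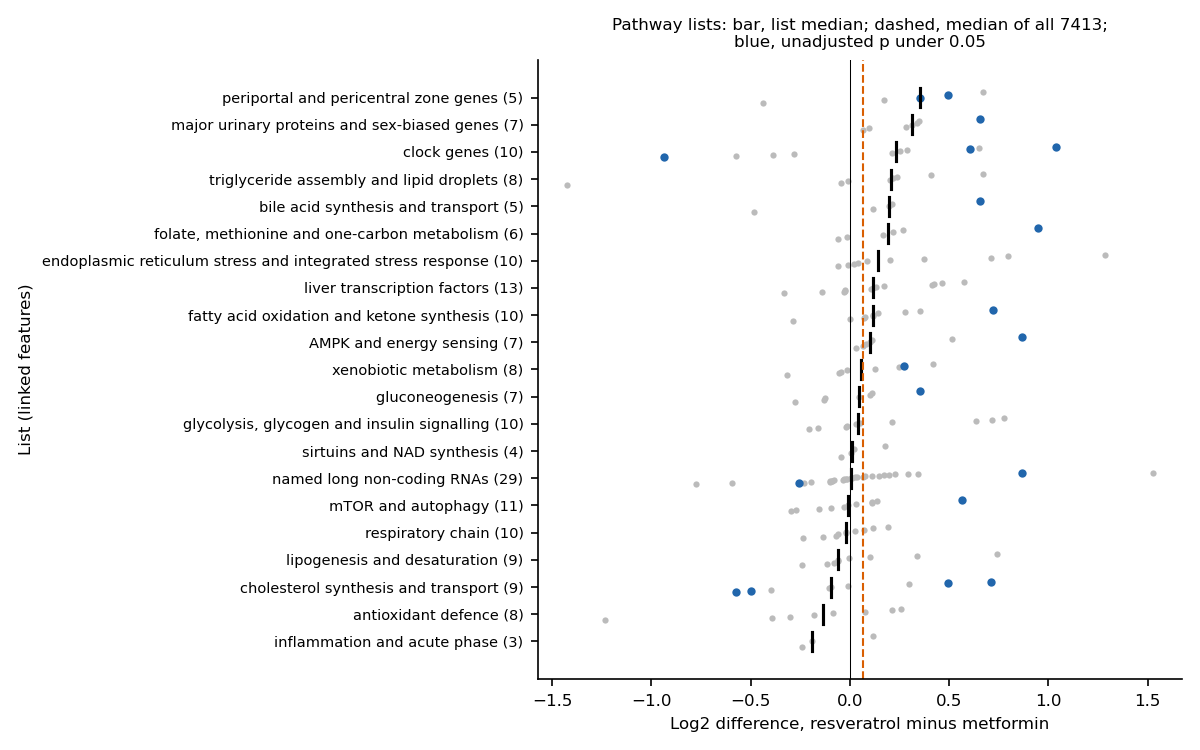
Log2 differences, resveratrol minus metformin, of the features linked to 21 pathway lists (points; number of features after each name), with the list median (bar) and the median of all 7413 features, 0.07 (dashed). Blue points have an unadjusted limma p under 0.05, and the cholesterol and clock lists hold such points on both sides of 0.

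A set of 233 features was off (at most 0.5 FPKM) in some drug libraries and on (at least 2 FPKM, 8-fold or more above the highest off value) in the others. Of these, 179 (76.8%) lay mainly in a 3′ UTR, against 14.9% of all tested features. The Peg3 feature is outside these limits, since its lowest resveratrol value was 1.42. AU020206 is outside them too, with resveratrol values up to 0.520 and metformin values from 1.55 FPKM. The limits thus leave out features whose groups did not overlap. Within them the on state followed the drugs in none: it was in no case on in all 4 livers of 1 drug and off in all 4 of the other. It was on in equally many livers of both drugs for 48 features and differed by at most 1 liver for 170. A difference of 3 livers was seen for 14, which were named after their values had been seen. More metformin livers were on for features of Slc48a1, a heme transporter (1 resveratrol liver at 10.9 FPKM and 3 at 0.107 to 0.118, against 10.9 to 15.5 with metformin), Tmem170b, Prr14l, Dennd6a, Cnih4 and Mfsd11. More resveratrol livers were on for Nav2, Chpt1, which makes phosphatidylcholine, Atp6v0a2, a proton pump subunit, Phc3, Zfp397, Zfp395 and features beside Stim2 and Klhl11. The Chpt1 feature, for example, stood at 9.74, 0.175, 7.51 and 11.2 FPKM with resveratrol and at 0.0912 to 0.199 with metformin.

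Leaving out each of the 8 libraries in turn called 1 to 12 features, 32 in all, and the 32 included all 14 features above, 5 lead features and 5 beside Eipr1. For each of the 14 features above, the library left out was the only liver whose state differed from the rest of its drug group. Without that liver the feature was on in all livers of 1 drug and off in all of the other. The calls of the 14 thus follow from how they were chosen and add no separate evidence. For each of the 5 lead features (AU020206 and those of Eif1a, Peg3, Clpx and Smarcc2) the library left out was the one nearest the other drug group, so these calls rest on dropping the least separated liver. In 18 of the 32 the feature was exonic and lay mainly in a 3′ UTR, as was the case for 976 of all 7413 tested features. The 14 on and off features come from a set of which 76.8% lay mainly in a 3′ UTR, so this count partly restates that choice.

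Runs of neighbouring features were looked for with all values known, and have no test. Only runs in which at least 4 features had an unadjusted limma p under 0.05 were kept, so their counts are high by choice. Over all 7413 features, 64.8% of the differences were positive and 5.38% of features were higher with resveratrol at that threshold. At Adk, adenosine kinase, which clears adenosine to AMP (chromosome 14, 21160764 to 21214820), all 7 features had an unadjusted limma p under 0.05 and were higher with resveratrol, as with median-ratio scaling (median difference 0.60, and 0.50 scaled). Their mean level was 11.02, 13.4, 12.6 and 14.1 FPKM with resveratrol and 10.3, 8.90, 5.90 and 7.66 with metformin, without overlap, against 3.12 to 12.5 on high-fat feed alone and 7.25 to 15.9 on ordinary feed. Beside Eipr1 (chromosome 12, 28898573 to 29189242) all 88 features had a positive difference and 28 met the threshold, 22 with scaling (median 0.55, and 0.49 scaled). Their mean level was 2.56, 2.35, 3.39 and 0.716 FPKM with resveratrol and 0.844, 1.57, 1.12 and 0.677 with metformin, so resveratrol library 4 lay within the metformin range. At Insig2 (chromosome 1, 121290693 to 121332916) 4 of 5 features were higher, between Ctcfl and Pck1 6 of 13 were higher and 1 lower, and at Map3k13 5 of 14 were higher and 1 lower. Neighbouring features share transcription and reads, and are not independent.

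By position, 192 of 2880 intronic features (6.67%) were higher and 28 (0.972%) lower at an unadjusted limma p under 0.05, against 42 and 22 of 1181 exonic ones (3.56% and 1.86%) and 92 and 37 of 1606 intergenic ones (5.73% and 2.30%). With median-ratio scaling the counts were 110 and 84 for introns, 24 and 41 for exonic features and 60 and 79 for intergenic ones, so the balance of exonic and intergenic features turned and that of introns did not.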

How the data were processed

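The authors deposited 1 table per library with the FPKM of 51024 long non-coding transcripts (44554 NONCODE, 6326 Ensembl, 144 assembled). RNA was extracted with Trizol and 1 ug per library prepared with a TruSeq kit, per the labels' protocols. Per the submitters' processing notes, the tools were Bowtie 0.12.2 and Cufflinks 2.1.1 and the build GRCm38. Strand handling, filters and annotation release are not stated in these sources.

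FPKM times length came in whole steps of 1 read in 100% of values, within 0.05 of a read, which gave depth and reads. Ensembl transcripts were summed per gene, with 6306 of 6326 matched to GENCODE M21, giving 49988 features. Features with at least 1 FPKM in at least 4 of the 16 libraries were tested (7413). They were placed against GENCODE M21 coding genes by position, exonic with at least 50% of their length in exons. "Multi-part" features have inner exons that the files do not give.

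Limma 3.58.1 (R 4.3.3), with a mean-variance trend, was fitted to log2(FPKM + 1) of the 8 drug libraries, with Benjamini-Hochberg adjustment over all 7413 features and a call at an adjusted p under 0.05. The fit was run on simulated reads with a fixed spread and equal library scale. These lack the on and off features, single high libraries and unequal scales of the real data, so the run does not measure the test on these data. Differences are resveratrol minus metformin. The 12 features named per direction had the smallest p among those whose groups did not overlap and whose mean reached 1 FPKM in the higher group; some members that this rule or the lists would name are not reported here. Key genes and 22 pathway lists are represented by the linked feature (in the gene or within 5 kb) with the highest mean. The comparison, members, lists and key genes were chosen with earlier results of these data known. Alternatives were a pseudocount of 0.1, other filters, scalings and library sets, transcripts kept apart, no trend and each library left out. Merging transcripts whose start-to-end spans, introns included, overlap by at least 50% of the shorter one was added after the data were seen. Overlaps were chained, so members of a locus need not all overlap each other.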

Additional observations from a re-analysis of the deposited data

Results flagged for a closer look

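A library far from the other 3 of its drug group, by Dixon's test of the gap at the ends of a group, was found 7 times in 92 groups of 4, where chance flags about 1 in 20. Malat1 stood at 150.6 FPKM in resveratrol library 3, against 6.95 to 9.98 in the other resveratrol libraries. Neat1 stood at 109 FPKM in resveratrol library 1, against 10.2 to 18.9, and the feature downstream of Ppara at 89.1 in resveratrol library 4, against 67.0 to 70.3. AU020206 stood at 0.520 FPKM in resveratrol library 1, against at most 0.0145 in the other 3. In metformin library 2 the feature upstream of Pck1 was at 0.949 FPKM, against 1.32 to 1.38, and that downstream of Zfp84 at 0.537, against 0.769 to 0.804. Gas5 was at 21.4 FPKM in metformin library 4, against 26.2 to 26.8.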

How the results depend on the processing

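No paired analysis was possible because the pair of numbers in each title has no stated meaning, and the drug groups share only 1 first number (6). No feature was called as analysed (0), nor with a pseudocount of 0.1, no filter on low values, all 16 libraries or 12 in 1 fit, no mean-variance trend, or overlapping transcripts merged. With at least 1 FPKM in all 4 libraries of a drug group 1 feature was called (AU020206), with each transcript its own feature 1 (AU020206-202), with median-ratio scaling 2 and with quantile normalization 2 (AU020206 and the Larp1 feature in both). The first of these filters uses the drug groups, and AU020206 passed it only through the metformin group, where it is high. That call adds no separate evidence. Leaving out 1 library called 1 to 12 features. The 24 lead features were chosen with groups that did not overlap, which fixes their direction under most alternatives and is no sign of stability. When merged, the locus of NONMMUT145427.1 had 0.30 and that of AU020206 -0.22, against -1.58 and -1.45 for the features alone. The merged loci at Slc38a10 and Trim11 had -0.44 and -0.27. Merged loci can hold transcripts that do not overlap the feature. The difference in total reads was 0.599 M, from -0.731 M (without metformin library 2) to 1.24 M with 1 library left out. Features under about 20 reads a library, such as that of Larp1, are limited by depth, and the causes of opposite levels of overlapping transcripts were not tested.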
